A study of Mus musculus with 6 samples.

Results

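The genes of the large aggregating proteoglycans of cartilage and their linkers were followed on every probe set of the array: Acan (aggrecan), Vcan (versican), Hapln1 (link protein), Matn1, Matn2, Matn3 and Matn4 (matrilins), Comp (cartilage oligomeric matrix protein) and Chad (chondroadherin). The 9 genes were taken by symbol, and the platform annotation gave them 21 probe sets of the 34945 with a single gene symbol, for 18193 genes in all. Bone marrow came from 3 Grem1;TdTomato mice on a C57BL/6J background, recorded as male and aged 6 to 8 weeks, all given oral tamoxifen. From each mouse the labels describe a Grem1+ fraction, sorted for Grem1 cells, and a Grem1- fraction of cells that had not recombined and lacked CD45, CD31 and Ter-119, the surface antigens of blood, endothelial and erythroid cells. Both fractions therefore share the genotype and the tamoxifen, the reporter marks cells in which the Grem1-driven allele recombined, and the gate is stated only for Grem1-. RNA of each fraction was amplified and hybridised to 1 Affymetrix array, giving 3 arrays per group.

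Aggrecan is the main proteoglycan of cartilage, and its many sulfated chains hold the water that lets the tissue bear load. Each aggrecan molecule binds the long sugar hyaluronan at its end, and link protein clamps that bond. Versican belongs to the same lectican family but is made more widely, in loose connective tissue, early mesenchyme and some myeloid cells. Matrilins, COMP and chondroadherin are smaller adaptor proteins that tie proteoglycans, collagen fibrils and cells together.

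The 250 bases before the annotated start of 4 members are shown. These members are Hapln1, which was higher, and its neighbour Vcan, which was lower on 2 of its 6 tested probe sets. The others are the lectican that was higher (Acan) and the matrilin with the largest difference on its only probe set (Matn1). Sequences are from RefSeq, build GRCm38.p6, read 5′ to 3′ along the gene, and 7 of the 9 members had an entry. Capitals mark matches on either strand to GGGCGG, the GC box that SP factors bind.
Acan, chr7:79052976-79053225, plus strand: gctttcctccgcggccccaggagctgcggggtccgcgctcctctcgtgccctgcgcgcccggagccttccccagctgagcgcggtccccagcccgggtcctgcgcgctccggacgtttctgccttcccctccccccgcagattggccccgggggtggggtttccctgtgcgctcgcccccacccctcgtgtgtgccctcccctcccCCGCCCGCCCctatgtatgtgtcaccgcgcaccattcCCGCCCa
Hapln1, chr13:89540386-89540635, plus strand: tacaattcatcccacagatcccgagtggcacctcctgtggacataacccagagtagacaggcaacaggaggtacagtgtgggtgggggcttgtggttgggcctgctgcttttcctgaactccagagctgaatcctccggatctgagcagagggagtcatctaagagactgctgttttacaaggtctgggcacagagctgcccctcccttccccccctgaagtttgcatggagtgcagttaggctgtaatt
Vcan, chr13:89742513-89742762, minus strand: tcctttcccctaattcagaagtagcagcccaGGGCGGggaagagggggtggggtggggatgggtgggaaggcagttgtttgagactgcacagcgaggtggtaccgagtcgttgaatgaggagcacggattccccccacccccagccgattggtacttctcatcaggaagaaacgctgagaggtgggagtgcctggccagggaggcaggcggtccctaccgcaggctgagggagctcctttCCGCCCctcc
Matn1, chr4:130944135-130944384, plus strand: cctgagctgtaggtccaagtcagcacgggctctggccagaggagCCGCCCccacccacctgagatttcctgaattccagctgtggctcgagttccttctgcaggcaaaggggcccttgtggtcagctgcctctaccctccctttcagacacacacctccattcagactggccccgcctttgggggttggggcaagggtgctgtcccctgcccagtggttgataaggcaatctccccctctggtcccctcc
The GC box stood 3 times in the Acan window, where 2 copies overlap, 2 times in Vcan and 1 time in Matn1, and it was found in 6 of the 8 member windows, which include 2 for Matn4, and in 32.7% of all 32851 windows of this length. Chad held the only TATAAA among the members, a word found in 12.4% of all windows. The words ACAAAG and AACAAT, which SOX factors can bind, were found in 0 of the 8 member windows and in 16.5% and 9.42% of all windows. A match describes the letters only.

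Expression is given on the log2 scale for each probe set, array medians ran from 3.74 to 3.81, and a value below log2 4 is called dim here, a limit that was chosen and not measured. Mouse 3 went against the recorded sex, with Xist, which the inactive X chromosome makes, at 11.04 in Grem1- and 10.60 in Grem1+ while the arrays of mice 1 and 2 read 2.99 at most, so differences are also given by mouse. Ptprc, the gene of CD45, stood at 11.78 to 12.37 in Grem1- despite the gate and at 7.29 to 10.56 in Grem1+. Grem1 itself stood at 3.69 to 3.75 in Grem1- and at 4.49, 4.14 and 8.61 in the Grem1+ arrays of mice 1, 2 and 3. As a sign of RNA integrity, Gapdh read higher at its 3′ end than at its 5′ end by 2.66 ± 0.34 log2 units in the Grem1- arrays and by 3.58 ± 0.51 in the Grem1+ arrays (SD, n = 3). The Gapdh gap was wider in Grem1+ in each mouse. The same measure for actin was 0.16 ± 0.02 and 0.09 ± 0.11, slightly smaller in Grem1+ in each mouse. Their part in the member differences was not tested. In sorted pools such as these, fewer cells of a type and less RNA per cell cannot be told apart.

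The comparison asks which of these matrix genes differ between the Grem1+ fraction and the gated Grem1- fraction of the same mice. Acan, Hapln1, Matn1, Matn2, Matn3, Comp and Chad were higher in Grem1+ on every probe set they had, by log2 differences of 2.56 to 5.64, whereas Vcan was lower on 2 of its 8 probe sets and higher on 0. Of the 21 probe sets, 18 were above log2 4 on at least 3 of the 6 arrays and were tested. Of these 18, 12 were higher and 2 were lower in Grem1+, where 10.1% and 7.76% of all 18157 tested probe sets were. The same 12 had every Grem1+ array above every Grem1- array, and the same 2 had every Grem1+ array below, which 21.6% and 20.4% of all tested probe sets did. The median difference over the 18 was 3.21 log2 units, against -0.01 over all tested probe sets. Tests were made with limma with the mouse as a block, and the adjusted p-values of the 12 higher probe sets lay between 0.0099 and 0.0245. With any 1 mouse left out and the mouse block kept, limma called 0 probe sets in the whole table, where 5178 to 5408 had an unadjusted p under 0.05, among them 14 of the 18 member probe sets each time.

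**Figure D1:**
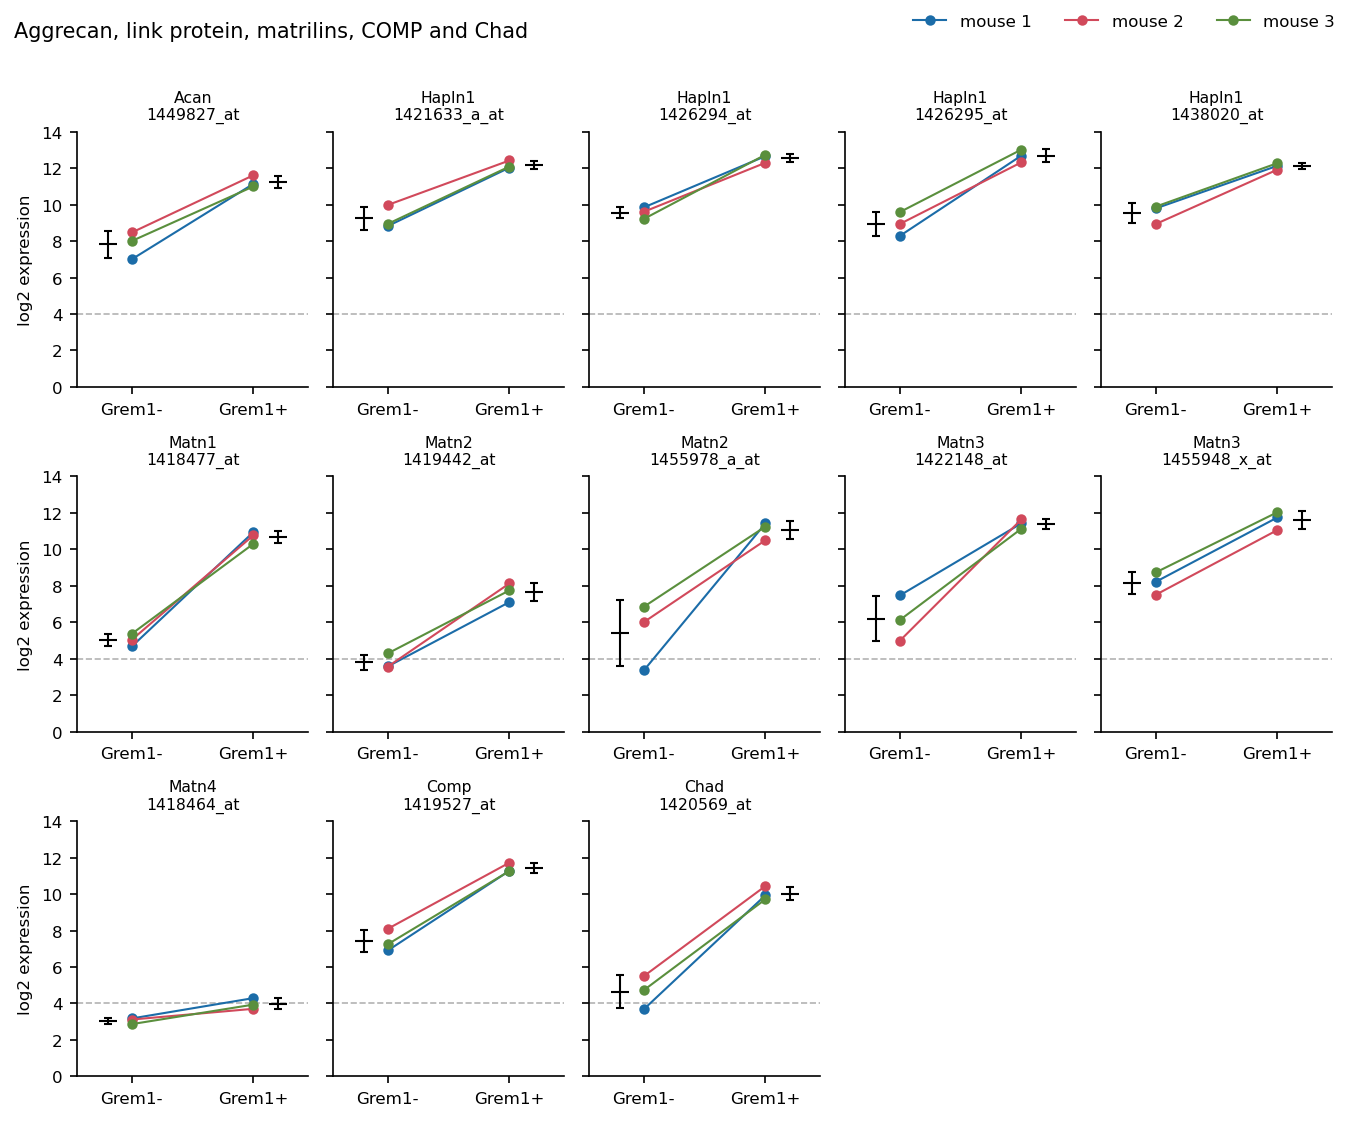
Log2 expression of the 13 probe sets of Acan, Hapln1, Matn1, Matn2, Matn3, Matn4, Comp and Chad in the Grem1- and Grem1+ fraction of each mouse; a line joins the fractions of a mouse, black marks give the mean ± SD (n = 3) and the dashed line is log2 4. All lines rise, and Matn4 is the gene whose values stay near or below the dashed line.

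The lectican Acan was higher, while Vcan was lower on 2 of its 6 tested probe sets. Acan stood at 7.0, 8.47 and 8.01 in the Grem1- arrays of mice 1, 2 and 3 and at 11.13, 11.61 and 10.99 in their Grem1+ arrays. The fractions were separated by 2.52 log2 units at their nearest arrays, and the Grem1+ values lay closer together than the Grem1- values. The difference was 3.42 (SE 0.37, adjusted p = 0.0139), or 10.7-fold with a 95% interval of 5.37 to 21.3, and it was 4.13, 3.14 and 2.99 in the 3 mice.

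Vcan was measured by 8 probe sets, which did not move as one. Probe set 1427256_at stood at 6.03, 7.17 and 7.21 in Grem1- and at 4.42, 5.74 and 4.74 in Grem1+, so that the highest Grem1+ array was 0.29 below the lowest Grem1- array. It was lower by 3.57-fold (difference -1.84, SE 0.35, adjusted p = 0.0368), and this call was lost when dim probe sets were also tested (adjusted p = 0.0628), with an intensity trend and a robust prior (adjusted p = 0.0514), and with any 1 mouse left out. Probe set 1427257_at stood at 5.89, 6.91 and 5.85 in Grem1- and at 3.34, 3.56 and 3.87 in Grem1+, where every array was dim, so only a bound is given. With dim values set to log2 4 it was at least 4.65-fold lower (adjusted p = 0.0227 as deposited). These 2 probe sets fell in each of the 3 mice.

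The other Vcan probe sets had overlapping groups. Probe set 1421694_a_at, the brightest on average, stood at 5.45, 8.03 and 6.02 in Grem1- and at 3.87, 7.08 and 5.98 in Grem1+, a difference of -0.85 (SE 0.41, adjusted p = 0.228). Mouse 2 was highest in both fractions there, and mouse 3 differed by only -0.04. Probe set 1433043_at stood at 4.16, 8.76 and 4.06 in Grem1- and at 2.89, 2.86 and 4.63 in Grem1+. Only the Grem1- array of mouse 2 was thus well above log2 4. Its difference of -2.20 (SE 1.34) did not pass (adjusted p = 0.326), and mouse 3 differed upwards, by 0.57. Probe sets 1433044_at and 1447887_x_at differed by -1.20 (SE 0.85, adjusted p = 0.394) and -1.92 (SE 1.22, adjusted p = 0.345), with the opposite sign in mouse 2 and their largest drops in mouse 3. The last pair, 1447586_at and 1459767_x_at, was dim on all 6 arrays, between 1.83 and 2.48, and was not tested. When the tested probe sets of Vcan were averaged, the gene was lower in limma over genes (difference -1.77, SE 0.29, adjusted p = 0.0163), while its brightest probe set alone did not pass.

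**Figure D2:**
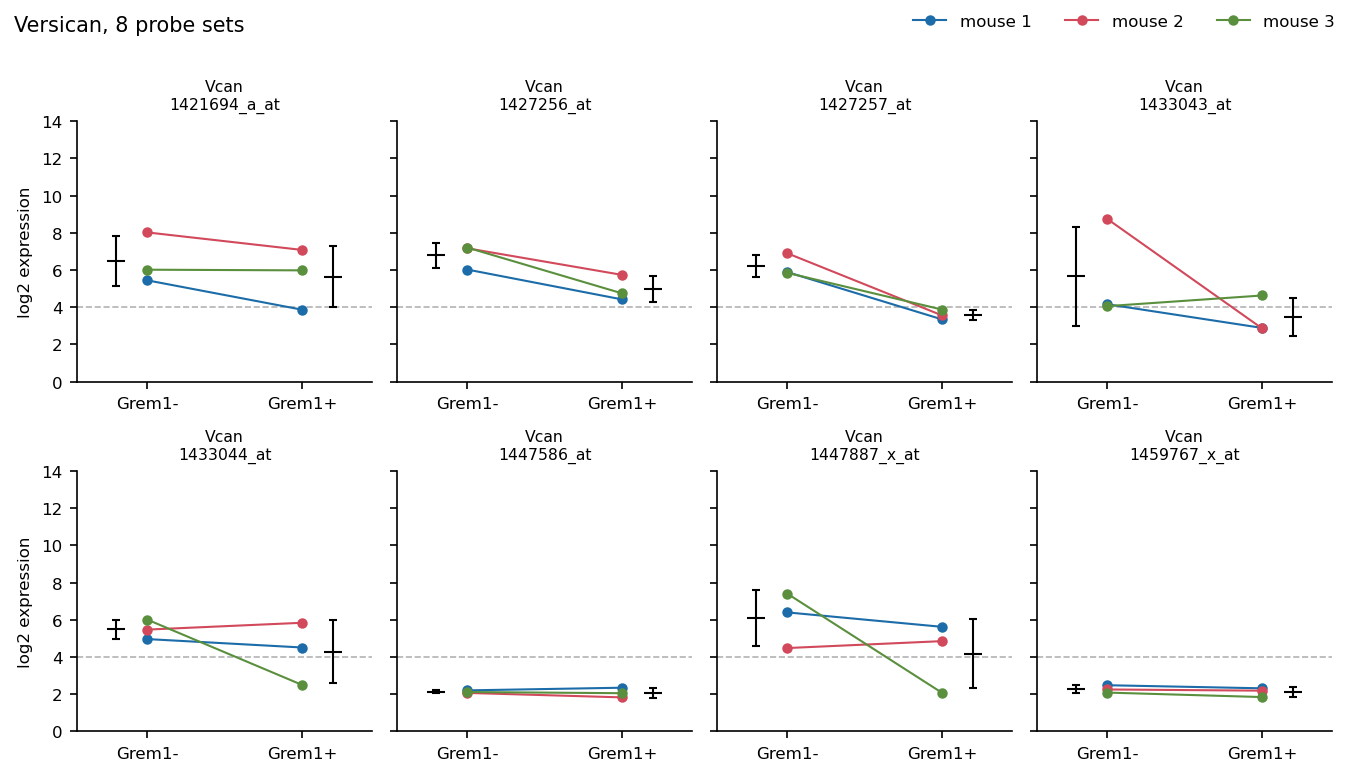
Log2 expression of the 8 Vcan probe sets in the Grem1- and Grem1+ fraction of each mouse, drawn as lines joining the fractions of a mouse with the mean ± SD (n = 3) in black and log2 4 dashed. Probe sets 1427256_at and 1427257_at fall in each mouse, 1433043_at is set apart by mouse 2 at 8.76, and 1447586_at and 1459767_x_at lie below log2 4 throughout.

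Within each mouse the difference of Acan exceeded that of Vcan 1427256_at by 5.74, 4.57 and 5.46 log2 units in mice 1, 2 and 3. The mean gap was 5.26 ± 0.61 (SD, n = 3), and an exact two-sided sign-flip test gave p = 0.25, the smallest value that 3 pairs allow. Probe set 1427256_at was taken from those called lower, and Acan was higher. The sign of the mean gap was therefore fixed in advance, and the test lends no support. Markers of monocytes and macrophages, cells that can express versican, moved the same way as Vcan: of 8 tested markers 5 were lower and 0 higher, beside 7.81% lower over all 10151 genes with 1 probe set each. Their summed signal was 12.77 to 13.05 in Grem1- and 10.65 to 11.59 in Grem1+ (log2 of the sum over 10 markers), and Csf1r, the receptor that defines the lineage, fell from 7.08, 7.35 and 6.92 to 2.23, 5.74 and 2.14. Ms4a6c was dim on all Grem1+ arrays and on 0 of the Grem1- arrays, while Adgre1 and Cx3cr1 were dim on all Grem1+ arrays but also on 2 and 3 of the 3 Grem1- arrays. F13a1 stayed bright, at 9.48, 9.95 and 9.69 in Grem1- and 9.23, 9.32 and 9.01 in Grem1+, and its difference of -0.52 did not pass (adjusted p = 0.286). The part of these cells in the Vcan values was not tested.

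Link protein was higher on 4 of 4 probe sets. Hapln1 probe set 1426294_at stood at 9.85, 9.61 and 9.22 in Grem1- and at 12.66, 12.29 and 12.73 in Grem1+, so the transcript was bright in both fractions and the groups lay 2.44 apart. The difference was 3.00 (SE 0.33, adjusted p = 0.0142), or 8.02-fold with an interval of 4.35 to 14.8. Probe set 1426295_at showed the largest difference of the 4, 3.73 (SE 0.36), and 1438020_at the smallest, 2.56 (SE 0.31). Their 95% intervals, 2.77 to 4.70 and 1.73 to 3.40, overlapped. The remaining probe set 1421633_a_at differed by 2.92 (SE 0.32), and for all 4 the adjusted p was at most 0.0166. Hapln1 and Vcan are next to each other on chromosome 13 among protein-coding genes, and in each mouse the Hapln1 difference on 1426294_at exceeded that of Vcan 1427256_at, by 4.42, 4.12 and 5.99. As this Vcan probe set was taken from those called lower, the direction of the mean gap was also set by the choice.

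Of the 4 matrilin genes, 3 were higher in Grem1+ and Matn4 was too dim to be tested. Matn1, the matrilin of cartilage, stood at 4.68, 5.05 and 5.37 in Grem1- and at 10.94, 10.77 and 10.30 in Grem1+. No other probe set among the members had so wide a space between its groups, 4.93 log2 units. The difference of 5.64 (SE 0.38, adjusted p = 0.0099) corresponds to 49.8-fold with an interval of 24.4 to 102, and by size it was number 106 of the 18157 tested probe sets.

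Matn3, a matrilin of growth plate cartilage, was read by 2 probe sets. On 1422148_at it stood at 7.47, 4.99 and 6.13 in Grem1- and at 11.42, 11.64 and 11.13 in Grem1+, a difference of 5.20 (SE 0.60, adjusted p = 0.0156). The Grem1- values were spread widely, with an SD of 1.24, while the Grem1+ values lay close together, so the differences by mouse ran from 3.95 to 6.65. On 1455948_x_at, which the platform marks as able to bind other transcripts, the difference was 3.46 (SE 0.28, adjusted p = 0.0100), with 3.52, 3.54 and 3.30 by mouse.

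Matn2, the matrilin found more widely in connective tissue and peripheral nerve, was also higher on both of its probe sets. On 1419442_at it stood at 3.58, 3.57 and 4.30 in Grem1- and at 7.11, 8.13 and 7.75 in Grem1+, a difference of 3.84 (SE 0.37, adjusted p = 0.0119), or 3.56 with dim values set to log2 4. On 1455978_a_at the Grem1- arrays stood at 3.37, 6.01 and 6.85 and the Grem1+ arrays at 11.42, 10.50 and 11.25. Mouse 1 was the low array in Grem1- and gave a difference of 8.05, beside 4.49 and 4.39 in the other mice. The mean of 5.64 (SE 0.87, adjusted p = 0.0245) was 4.44 without mouse 1, and it did not pass when dim probe sets were also tested (adjusted p = 0.0711). Among Schwann cell markers the 2 tested, S100b and Pmp22, were higher, beside 11.1% higher over all genes. Cartilage can express S100b too, and Schwann cells also make Matn2. Sox10, a defining factor of that lineage, lay between 3.87 and 4.22 on all 6 arrays. The part of such cells in the Matn2 values was not tested.

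Matn4 stood at 3.18, 3.12 and 2.87 in Grem1- and at 4.29, 3.71 and 3.94 in Grem1+. Only 1 of its 6 arrays was above log2 4. Each mouse differed upwards, by 1.11, 0.59 and 1.07, but no test was made at this signal and no fold is given.

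Comp, a pentameric protein of the thrombospondin family that binds collagen in cartilage and tendon, stood at 6.91, 8.10 and 7.25 in Grem1- and at 11.28, 11.72 and 11.26 in Grem1+. It was higher by 4.0 (SE 0.31, adjusted p = 0.0099), or 16.0-fold with an interval of 8.93 to 28.7, and by 4.37, 3.62 and 4.01 in the 3 mice. Chad, a leucine-rich repeat protein that attaches chondrocytes through an integrin, stood at 3.69, 5.50 and 4.73 in Grem1- and at 9.93, 10.44 and 9.71 in Grem1+. The nearest arrays of the 2 fractions were 4.21 apart. Its difference was 5.39 (SE 0.40, adjusted p = 0.0099), and with the dim Grem1- array of mouse 1 set to log2 4 it was 5.28, or 38.9-fold.

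**Figure D3:**
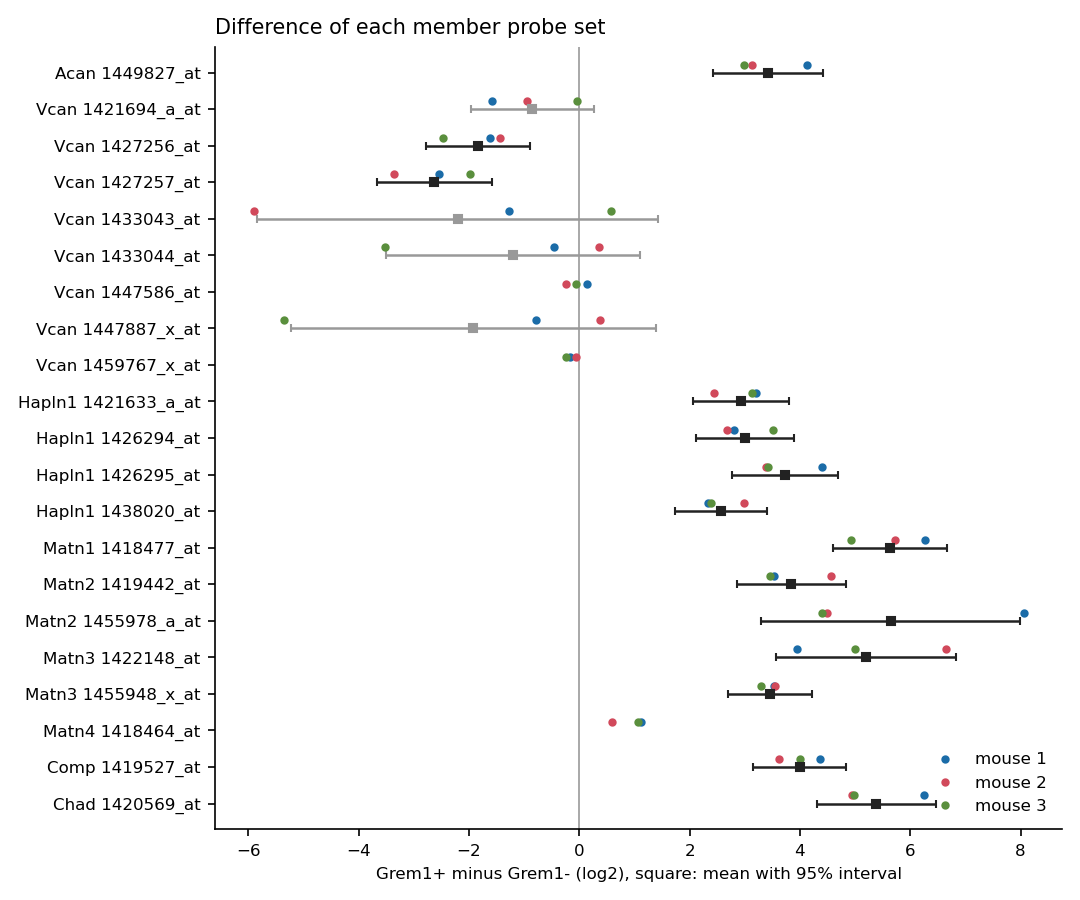
Difference Grem1+ minus Grem1- (log2) of the 21 member probe sets, with squares and bars for the limma mean and its 95% interval where tested (black past the threshold, grey not) and coloured points for the 3 mice. The 12 higher probe sets lie between 2.56 and 5.64, the 2 lower Vcan probe sets at -1.84 and -2.63, and 3 dim probe sets carry points only.

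Among the 12 higher probe sets the spread between mice was larger in Grem1- than in Grem1+ for 11, with SDs of 0.32 to 1.82 and 0.18 to 0.52 in the 2 fractions, and Matn2 1419442_at was the exception. All 12 had their lower values in Grem1-. General blood cell (pan-haematopoietic) markers, which had lower means in Grem1+, mostly showed the reverse. Ptprc had an SD of 0.30 in Grem1- against 1.68 in Grem1+, and Cd53 0.10 against 1.78. Coro1a and Rac2 alone on that list had the larger SD in Grem1-. No share over all tested probe sets was computed, and a link between spread and signal level was not tested. The differences fell into a lower range from 2.56 to 4.0 for Acan, Hapln1, Comp, Matn2 1419442_at and Matn3 1455948_x_at and an upper range from 5.20 to 5.64 for Matn1, Chad and the other probe sets of Matn2 and Matn3. Because the 2 probe sets of Matn2, and of Matn3, lie in different ranges, the ranges do not order the genes.

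Most relatives of the members on a list of paralogs did not pass the test or were dim. Of 10 listed lectican, link, thrombospondin and chondroadherin relatives, 7 were tested, 2 were higher (1 when dim probe sets were also tested) and 0 lower, with a median difference of 0.23, beside 11.1% higher, 7.81% lower and a median of 0.04 over all 10151 genes. Both that rose are thrombospondins of the pentameric subgroup that includes COMP. Thbs3 stood at 5.0, 3.41 and 3.40 in Grem1- and at 8.69, 8.46 and 8.36 in Grem1+, a difference of 4.57 (SE 0.41, adjusted p = 0.0108). Thbs4 differed by 2.48 (SE 0.46, adjusted p = 0.0348), but its groups overlapped, with 8.41 in Grem1- of mouse 2 and 8.02 in Grem1+ of mouse 3. Thbs1 differed by -0.09 (95% interval -0.90 to 0.72). The neural lectican Ncan differed by 0.10 (-0.67 to 0.87). Bcan, Hapln2 and Hapln3 were dim on all arrays, the last being the protein-coding gene next to Acan on chromosome 7.

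Of 16 tested partners in the matrix 9 were higher and 0 lower, with a median difference of 1.66, beside 11.1% higher and a median of 0.04 over all genes. The 9 were Has2, Col11a2, Bgn, Col9a2, Col11a1, Tnc, Dcn, Fn1 and Col9a1. Has2, an enzyme that spins the hyaluronan chain to which aggrecan binds, was dim on every Grem1- array and at 7.70, 9.06 and 8.81 in Grem1+, at least 22.9-fold higher (adjusted p = 0.0131). Col11a2 differed by 4.14 (SE 0.29), Bgn, the small proteoglycan biglycan, by 2.88 (SE 0.32), and Col9a2, a chain of the collagen IX that binds matrilins and COMP, by 2.54 (SE 0.32). Cd44, a hyaluronan receptor common on blood cells, differed by -0.18 (95% interval -0.96 to 0.61), and Col2a1, the main fibril collagen of cartilage, by 0.52 (-0.26 to 1.29). Neither passed.

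Proteases that cut these proteins, with their inhibitor Timp3, were higher in 6 of 9 tested cases and lower in 0, and the median difference was 3.54. Timp3 was among the 6. Over all 10151 genes 11.1% were higher and 7.81% lower, with a median of 0.04. Mmp3, stromelysin, was dim on every Grem1- array and at least 34.8-fold higher (adjusted p = 0.0102). Mmp13, the collagenase of cartilage, differed by 4.24 (SE 0.40), Htra1, a secreted serine protease, by 3.98 (SE 0.39) and Adamts1 by 3.88 (SE 0.52). Of the aggrecanases proper, Adamts5 was higher by 3.33 (SE 0.33, adjusted p = 0.0124) on its brightest probe set and on 2 of its 4 tested probe sets. Adamts4 differed by 5.58, 1.75 and 3.28 in mice 1, 2 and 3, a mean of 3.54 (SE 0.81) that did not pass (adjusted p = 0.0537), although it passed with dim values set to log2 4 (adjusted p = 0.0458). Of the SOX trio, which switches on cartilage matrix genes, Sox9 differed by 4.58 (SE 0.41) and Sox5 by 2.69 (SE 0.34) on their brightest probe sets, both past the threshold. Of their tested probe sets, 2 of 3 for Sox9 and 6 of 6 for Sox5 were higher. Sox6 differed by 2.03 (SE 0.49, adjusted p = 0.0599) on its brightest probe set, while 3 of its 4 tested probe sets were higher.

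**Figure D4:**
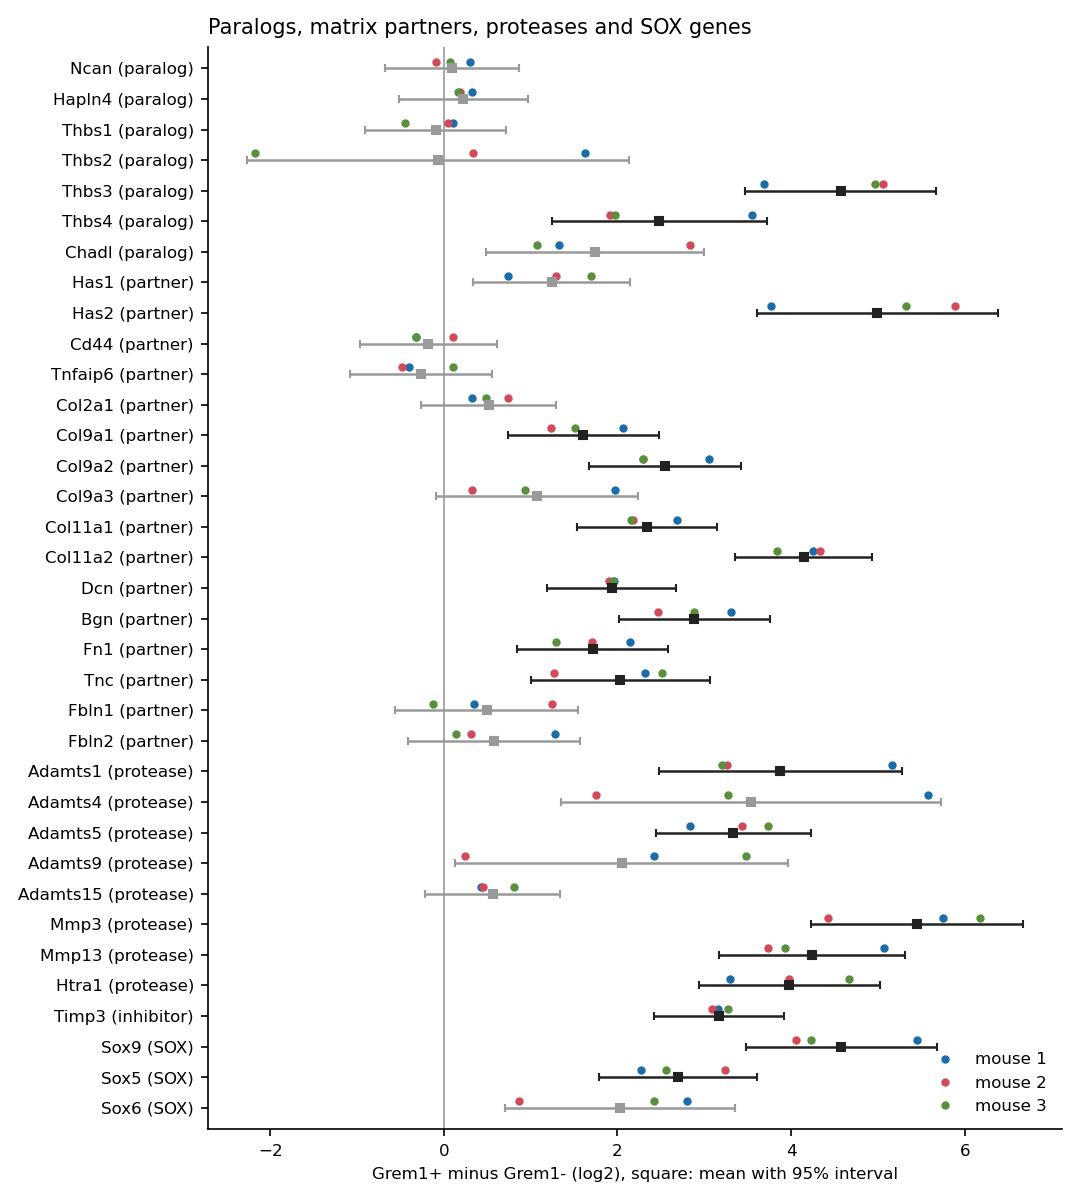
Difference Grem1+ minus Grem1- (log2) of the tested paralogs, matrix partners, proteases with Timp3, and SOX genes, 1 probe set per gene, with the limma mean and 95% interval (black past the threshold, grey not) and the 3 mice as coloured points. Thbs3, Has2, Mmp3 and Sox9 are among those above 4, while Ncan, Hapln4, Thbs1 and Cd44 lie between -0.18 and 0.23.

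Markers of other cells moved between the same arrays. For comparison, over all 10151 genes with 1 probe set each, 11.1% were higher and 7.81% lower. Of 11 chondrocyte markers outside the members 10 were higher, and Col2a1 was the one that did not pass. Sox9, Col2a1, Col9a1, Col11a1 and Col11a2 were already counted in the SOX trio or the matrix partners, so these counts are not independent. Of 5 tested osteoblast markers 3 were higher. Of 10 pan-haematopoietic markers 7 were lower, with a summed signal of 14.46 to 14.55 in Grem1- and 12.04 to 12.99 in Grem1+ (log2 of the sum), and of 11 granulocyte markers 8 were lower, with 14.70 to 14.77 and 11.72 to 13.54. B lineage markers were lower in 3 of 4 tested cases and erythroid markers in 2 of 4, and 0 of 2 endothelial markers passed. When dim probe sets were also tested, the lower counts were 2 pan-haematopoietic, 2 monocyte and macrophage and 4 granulocyte markers. The whole-table count of lower probe sets fell in that setting too. Of 7 tested fibroblast and tendon markers 2 were higher, Thbs4 and Lum, and Scx, a defining factor of tendon, was dim on all 6 arrays. The part of these shifts in the member differences was not tested.

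The genes whose 6 values ran closest to those of a member were found by the Euclidean distance between values centred on each gene's mean, a description over 6 arrays that the difference between the fractions dominates. For Acan these were Slc9a3r2, Ids and Fads1, at distances of 0.35 to 0.50 log2 units. For Matn1 they were Wif1, Tpbg and Slc1a1 (0.39 to 0.53), for Comp Vkorc1, Uhrf1bp1l and Ccn1 (0.34 to 0.47), and for Chad Nckap1, Shisa4 and Cspg4 (0.41 to 0.53). Hapln1 on its brightest probe set ran closest to Rcn1, Col15a1 and Pmepa1 (0.39 to 0.48). Matn2, Matn3 and Vcan on their brightest probe sets had no gene so near, and their nearest were Tcfl5 at 0.96, Ddr1 at 0.54 and Mex3b at 0.70.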

How the data were processed

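The authors deposited log2 expression values per probe set of an Affymetrix mouse array. GCRMA, which corrects background from probe sequence, is named in the submitters' processing notes, with its version and settings not given in the sources used here. The values themselves (0.80 to 14.05) show the log2 scale. Per the labels' protocols, amplification used NuGEN's Ovation One-Direct kit. Amplification and GCRMA can compress or stretch folds, so folds are those of the deposited values. Scanner files were not used here, and the number of arrays limits the precision.

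Probe sets with exactly 1 gene symbol in the platform annotation were used (34945 of 45101, with 932 holding several symbols, 9160 unnamed here and 64 controls). A probe set was tested when its value exceeded log2 4 on at least 3 of 6 arrays. Differences, Grem1+ minus Grem1-, were tested with limma 3.58.1 in R 4.3.3 (lmFit, eBayes, two-sided) with the mouse as a block, with Benjamini-Hochberg adjustment across the 18157 probe sets and 0.05 as the threshold. Residual degrees of freedom were 2 and prior ones 2.28, and the fit was tested on simulated data. Pairing comes from the series' design text, by which each mouse gave both fractions, with the mouse read from the number in the title; same-numbered arrays correlated in their deviations at 0.01, 0.05 and 0.03. Each p-value weighs a mean difference against how much the Grem1+ minus Grem1- difference varied between these mice. Each variance was drawn by limma towards that of all tested probe sets. Where a call was made and every array of the lower group was dim, the fold is a lower limit computed after raising dim values to log2 4. Listed genes were represented by their tested probe set with the highest mean. Some listed genes are not reported here. Named genes were all member probe sets, list members past the threshold with values for up to 4 and up to 2 that did not pass, the 3 nearest patterns, and chromosomal neighbours in the RefSeq table (GRCm38.p6). Further list genes, such as Adamts5, and Xist were named after their values were seen. Members and lists were chosen with earlier results of these data known. Alternatives changed the block, filter, normalization, dim values, probe set summary, probe set types, variance model and mice.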

Additional observations from a re-analysis of the deposited data

How the results depend on the processing

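Every tested member probe set kept its direction under every alternative run. The counts of 12 higher and 2 lower member probe sets stood unchanged without the replicate block, under quantile normalization, median centring and cyclic loess, and with dim values set to log2 4; without the replicate block the whole-table counts rose from 1826 and 1409 to 2329 and 1876. With 1 probe set or the mean of probe sets per gene, 7 genes were higher, since fewer features were tested. The lower count, all Vcan, came to 1 with no filter, to 1 under the stricter filter of log2 6, 1 with a trend and robust prior, 0 with the brightest probe set and 1 with the mean of probe sets. The stricter filter left 1427257_at untested. Over the whole table, 1095 probe sets were higher and 666 lower without the filter, and 1191 and 864 with the brightest probe set per gene, where other genes and probe sets enter the adjustment. Leaving out 1 mouse gave 0 to 12 higher and 0 to 1 lower member probe sets and 0 to 1206 and 0 to 797 in the whole table. The zeros came with the block kept, which leaves 1 residual degree of freedom and a smallest adjusted p of 0.0532, 0.0612 and 0.0673 without mouse 1, 2 and 3. Without the block, 12, 11 and 11 member probe sets were higher and 1 was lower each time, and the higher calls lost were Matn2 1455978_a_at without mouse 2 (adjusted p = 0.0607) and Hapln1 1421633_a_at without mouse 3 (adjusted p = 0.0503); among all probe sets tested, 1148, 1206 and 1124 were higher and 787, 767 and 797 lower without mouse 1, 2 and 3. Among the lists, the median of the SOX trio was 4.14 with the mean of probe sets and that of the paralogs 1.74 under the stricter filter. The number of arrays limits what smaller differences could be seen.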

Other observations

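The chromosomal neighbours of the matrilin genes, which include syndecan and Laptm genes, were measured on the same arrays. Among tested neighbours outside the members, Sdc3, Sdc4, Laptm4b, Edil3, Mfge8 and Acsf2 were higher and Slpi was lower. The others, which were most of them, did not pass. Over all 10151 genes 11.1% were higher and 7.81% lower, and the neighbours were not tested as a set against these shares. Sdc3 and Sdc4, cell surface proteoglycans whose genes lie 2 protein-coding genes from Matn1 and Matn4, were higher in Grem1+ by 2.45 (SE 0.35, adjusted p = 0.0214) and 4.85 (SE 0.56, adjusted p = 0.0155) in limma. Sdc1, in the same position beside Matn3, differed by 2.26, 4.60 and 8.68 in mice 1, 2 and 3 and did not pass (mean 5.18, SE 1.31, adjusted p = 0.0661), although it did with dim values set to log2 4 (adjusted p = 0.0492). Laptm4b, a lysosomal membrane protein next to Matn2, was higher by 5.01 (SE 0.67, adjusted p = 0.0191). Laptm4a, next to Matn3, differed by 0.93 (SE 0.31, adjusted p = 0.118). Laptm5, the relative made by blood cells and the gene next to Matn1, differed by -1.51 (SE 0.42, adjusted p = 0.0802), downwards in each mouse, beside 5.64 for Matn1 itself. Edil3, which lies on the other side of Hapln1 from Vcan, was dim on every Grem1- array and at least 13.5-fold higher in Grem1+ (adjusted p = 0.0120), and Mfge8, its relative, lies 2 genes from Acan and was higher by 3.93 (SE 0.46, adjusted p = 0.0158). Matn4, which was dim, is next to Slpi, a protease inhibitor of granulocytes and epithelia that was lower in Grem1+ (difference -3.52, SE 0.40, adjusted p = 0.0152). Matrilin neighbours that also did not pass were Ptpru, Mecr, Mtdh, Wdr35, Ttc32 and Svs5, with differences of 0.30, -0.01, 0.04, 1.83, -0.69 and -0.14. Near the other members, Acsf2 was higher by 2.42, while Aen, Isg20, Xrcc4, Tmem167, Cox7c, Upf1, Klhl26, Lrrc59 and Eme1 did not pass.

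Mice did not keep a single order across the members. Mouse 2 was the highest of the 3 in both fractions for 4 of the 12 higher probe sets, namely Acan, Comp, Chad and Hapln1 1421633_a_at. On the other Hapln1 probe sets mouse 2 was the lowest of the Grem1+ arrays, so the order of the mice differed between probe sets of 1 gene.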
